A study of Mus musculus with 24 samples.

Results

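The genes described here encode the collagen chains outside the cartilage set, measured in whole mouse cochlea at 4 postnatal ages. Members were all genes whose symbol has the form of a collagen alpha chain, apart from the chains of collagens II, IX, X and XI, and each gene was read through the probe set with the highest mean log2 signal over all arrays. This gave 35 of the 42 collagen chain genes on the array, covered by 71 of its 45101 probe sets. They comprise 8 fibrillar chains, 6 basement membrane chains, 2 short-chain network chains, 5 beaded-filament chains, 1 anchoring-fibril chain, 6 fibril-associated chains, 4 transmembrane chains, 2 multiplexins and Col26a1.

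Cochlear RNA came from wild type mice and from α9−/− mice, which lack the chrna9 gene, coding for the α9 subunit of the nicotinic acetylcholine receptor of hair cells, in every cell of the body. Mice of both genotypes were a 129S6 x CBA/CaJ hybrid bred back to CBA/CaJ for at least 7 generations. Cochleae were collected at postnatal day 3 (P3), P7, P13 and P60, and each of the 8 groups had 3 arrays. Every array was hybridised with RNA of a pool, given in the labels as 3 to 5 mice. By the authors' methods, pools held more cochleae at P3 and P7 than at P13 and P60. The whole cochlea was taken after cerebellar fragments, semicircular canals and the auditory nerve had been dissected away, so its bony capsule was part of the sample.

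Collagens are secreted or membrane-bound proteins whose chains wind around each other in a helix. Fibrillar collagens form the cables of bone and connective tissue, fibril-associated collagens coat those cables, and collagen IV builds the sheet-like network of basement membranes. Collagen IV networks differ in their chains: Col4a1 and Col4a2 build the network found in nearly all basement membranes, whereas Col4a3, Col4a4 and Col4a5 build a network that is restricted to kidney glomerulus, cochlea, eye and a few other sites, and whose loss causes Alport syndrome, a kidney disease with hearing loss. The genes for collagen IV lie in head-to-head pairs on their chromosomes: Col4a1 with Col4a2, Col4a3 with Col4a4, and Col4a5 with Col4a6.

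Promoter windows of collagen IV genes are shown because the genes of the first pair fell with age and those of the next rose in wild type. Each window runs from 250 bases before to 50 bases after an annotated start, 5′ to 3′ on the gene's own strand, as given by RefSeq on GRCm38.p6, and such windows were available for 28 of the 35 members. The Col4a1 window is chr8:11312777-11313076 on the minus strand and the Col4a2 window chr8:11312555-11312854 on the plus strand. Capitals in these windows mark the 78 bases that both hold, once per strand, and the annotated starts used here lie 21 bases apart. The Col4a4 window is chr1:82586800-82587099 on the minus strand. Capitals there mark the 179 bases that also lie inside the annotated Col4a3 gene of the opposite strand. The first base of that gene is 72 bases from the Col4a4 start used here. The annotated Col4a1 gene extends to 11312889 and the annotated Col4a4 gene to 82587034, both upstream of the starts used.
Col4a1: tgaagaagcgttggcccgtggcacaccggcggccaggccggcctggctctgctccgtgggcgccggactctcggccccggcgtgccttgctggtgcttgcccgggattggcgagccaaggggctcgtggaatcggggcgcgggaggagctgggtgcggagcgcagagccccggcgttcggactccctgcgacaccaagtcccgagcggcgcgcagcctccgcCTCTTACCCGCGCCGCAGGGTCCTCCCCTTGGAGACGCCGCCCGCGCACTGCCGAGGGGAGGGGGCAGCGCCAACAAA
Col4a2: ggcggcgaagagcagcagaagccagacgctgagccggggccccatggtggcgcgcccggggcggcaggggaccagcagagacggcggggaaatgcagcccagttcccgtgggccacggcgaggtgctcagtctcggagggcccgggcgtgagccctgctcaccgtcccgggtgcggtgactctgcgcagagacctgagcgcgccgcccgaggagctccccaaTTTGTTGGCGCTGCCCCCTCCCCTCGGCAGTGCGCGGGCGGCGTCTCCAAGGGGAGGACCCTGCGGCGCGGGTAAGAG
Col4a4: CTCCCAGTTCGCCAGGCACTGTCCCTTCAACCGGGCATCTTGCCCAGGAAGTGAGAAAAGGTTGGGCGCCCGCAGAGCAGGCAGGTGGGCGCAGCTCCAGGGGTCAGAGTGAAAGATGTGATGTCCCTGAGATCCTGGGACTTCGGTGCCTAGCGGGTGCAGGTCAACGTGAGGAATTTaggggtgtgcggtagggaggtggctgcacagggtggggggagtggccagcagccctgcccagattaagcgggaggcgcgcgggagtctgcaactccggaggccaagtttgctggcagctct
GC made up 74% of the Col4a1 window, 73.7% of the Col4a2 window and 63.3% of the Col4a4 window. The GC-box letters GGGCGG, searched on both strands, occurred 1 time in the Col4a1 window, 3 times in the Col4a2 window and 0 times in the Col4a4 window. Of all 32851 promoter windows, 35.7% held these letters. The TATA-box letters TATAAA were in 0 of the 3 windows shown, against 13.6% of all windows.

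All values are log2 signals after quantile normalization over the 24 arrays. Probe sets of different genes bind their targets with different strength, so levels were compared within a gene only. Within each group, arrays correlated at r of 0.915 to 0.989 over all probe sets. Signal from the 5′ end of Gapdh was low on 5 arrays, which had a 3′ minus 5′ difference of 6.30 to 7.69 against at most 2.43 on the others. These were 4 arrays of wild type, namely replicate 1 of P3, replicates 1 and 2 of P13 and replicate 1 of P60, and replicate 2 of the P3 α9−/− group, and they are called the low-Gapdh arrays here. Chrna9 itself did not separate the genotypes on its brightest probe set, with 4.90 to 6.40 in wild type and 5.02 to 6.10 in α9−/− mice, and the sources used here do not say whether its probe sets lie in the deleted part. Cochlear markers were present, with a summed log2 signal of 14 measured genes, among them Coch, Gjb2 and Otof, of 13.67 or more on every array. The brightest genes weigh most in such a sum. Mean signals under 6 were seen for 3 of the 14 at P60 in wild type and for 2 in every other group.

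Collagen genes were lower in the adult cochlea than in the newborn one. From P3 to P60 in wild type, 21 of the 35 genes fell, 3 rose and 11 did not pass the test (limma on all arrays, adjusted p < 0.05), whereas 6.11% of all probe sets were called lower and 7.59% higher. Their median difference was -1.52 on the log2 scale, against -0.035 over all probe sets. Arrays of P60 lay entirely below those of P3 for 22 members and entirely above for 3, against 11.8% and 11.9% of all probe sets. In α9−/− mice 21 genes fell, 1 rose and 13 did not pass, with a median difference of -1.48, against 8.01% and 6.28% of all probe sets called lower and higher. There, P60 arrays lay entirely below P3 arrays for 24 members and entirely above for 1, against 18.5% and 13.3% of all probe sets. With the replicate number as a block, 24 passed in α9−/− mice, the added genes being Col8a1 (-0.71, adjusted p = 0.0426) and Col25a1 (-0.80, adjusted p = 0.0341). In bulk tissue, fewer cells of a type and less RNA per cell cannot be told apart.

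**Figure D1:**
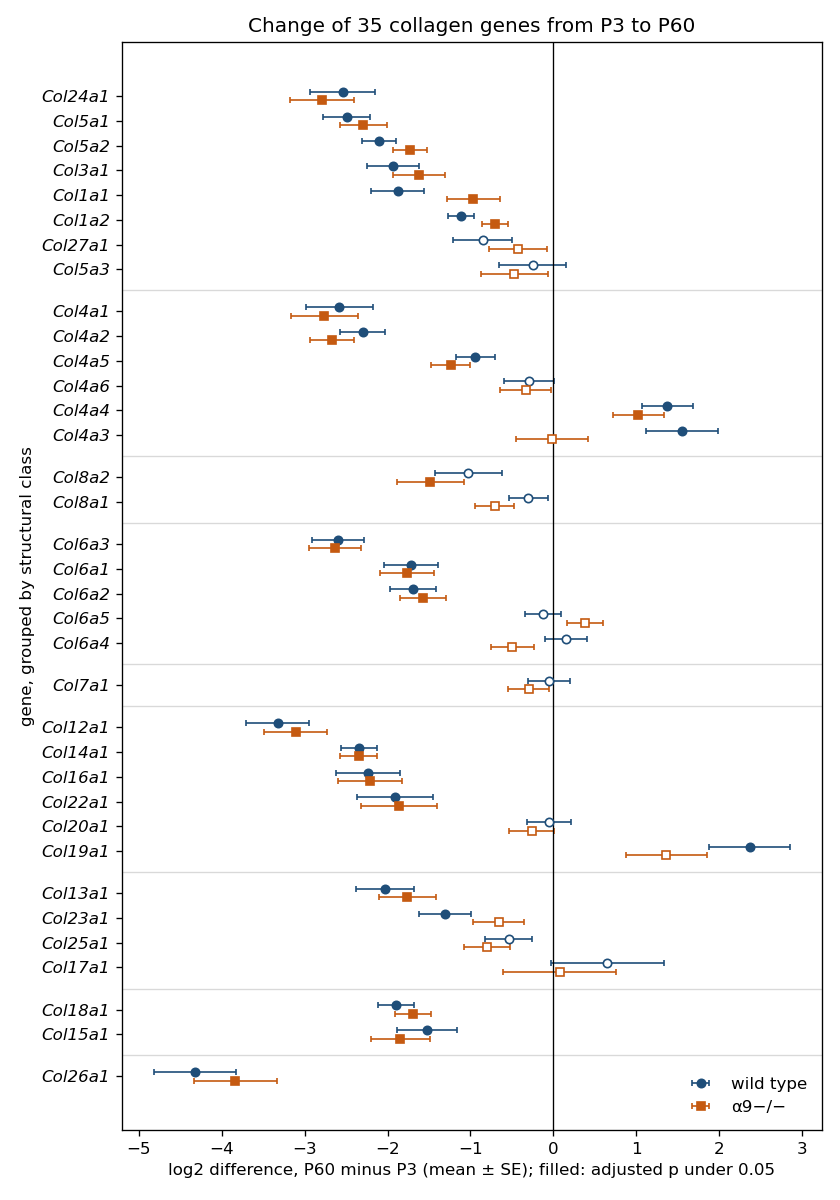
Log2 difference between P60 and P3 for each of the 35 collagen genes, with its standard error, in wild type (circles) and α9−/− mice (squares), grouped by structural class from fibrillar chains at the top to Col26a1 at the bottom. Filled symbols passed the test at an adjusted p under 0.05; most lie left of 0, and Col4a3, Col4a4 and Col19a1 lie to the right of it in wild type.

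Most genes that changed did so in both genotypes. Of the 35, 21 passed in both, all of them in the same direction, 10 passed in neither, 3 passed in wild type only (Col4a3, Col19a1 and Col23a1) and 1 in α9−/− mice only (Col8a2); 8.83% of all probe sets passed in both. A test of the difference between genotypes in the P3 to P60 change called 0 of the 35 and 0% of all probe sets, with 1 member, Col4a3, at an unadjusted p under 0.05 against 3.59% of all probe sets. For Col19a1, Col23a1 and Col8a2 that difference was -1.01, 0.65 and -0.46 on the log2 scale (adjusted p from limma = 0.943, 0.943 and 0.943).

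In wild type the pair of Col4a1 and Col4a2 parted from that of Col4a3 and Col4a4, though the Col4a3 call depended on single arrays. In α9−/− mice Col4a4 passed as higher and Col4a3 did not pass. Col4a1 and Col4a2, the chains of the general basement membrane network, fell from P3 to P60 by 5.98-fold and 4.92-fold in wild type, while Col4a3 and Col4a4, chains of the Alport network, rose by 2.95-fold and 2.6-fold. Col4a5, the partner of Col4a3 and Col4a4 in the Alport network, fell rather than rose, and Col4a6, which pairs with Col4a5 in smooth muscle and some epithelial basement membranes, did not pass the test.

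Col4a1 (chr8:11198423-11312889 on GRCm38.p6) had log2 signals in wild type of 12.76, 13.04 and 12.82 on P3 arrays, 12.85, 11.74 and 12.82 on P7 arrays, 11.81, 11.48 and 11.63 on P13 arrays and 10.06, 10.20 and 10.61 on P60 arrays. Col4a1 in α9−/− mice read 12.37, 13.02 and 13.25 on P3 arrays, 12.92, 11.69 and 12.93 on P7 arrays, 11.61, 11.86 and 11.57 on P13 arrays and 9.57, 9.55 and 11.23 on P60 arrays. All P60 arrays lay below all arrays of the earlier ages in both genotypes, and replicate 2 of P7 was the lowest of its group in either genotype. The P3 to P60 difference was -2.58 (SE 0.40, adjusted p = 0.000167) in wild type and -2.76 (adjusted p = 9.56e-05) in α9−/− mice. Its other probe set also fell (-1.75 and -1.97).

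Col4a2 (chr8:11312805-11449287) showed wild type log2 signals of 11.67, 11.54 and 11.60 on P3 arrays, 11.52, 11.16 and 11.49 on P7 arrays, 10.79, 10.53 and 10.57 on P13 arrays and 9.41, 9.14 and 9.36 on P60 arrays. Col4a2 signals in α9−/− mice were 11.03, 11.75 and 12.01 on P3 arrays, 11.48, 10.93 and 11.37 on P7 arrays, 10.63, 10.81 and 10.60 on P13 arrays and 8.46, 8.62 and 9.69 on P60 arrays. Levels stepped down at P13 and again at P60, with no overlap between P3 and P60 in either genotype. From P3 to P60 the difference was -2.30 (SE 0.27, adjusted p = 7.06e-06) and -2.67 (adjusted p = 1.71e-06).

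Col4a3 (chr1:82586921-82722059) gave wild type log2 signals of 6.60, 5.62 and 5.61 on P3 arrays, 7.87, 7.58 and 7.65 on P7 arrays, 8.57, 9.10 and 8.63 on P13 arrays and 8.25, 7.41 and 6.84 on P60 arrays. Col4a3 in α9−/− mice gave 5.67, 7.46 and 6.45 on P3 arrays, 8.73, 7.16 and 7.67 on P7 arrays, 8.38, 8.69 and 8.78 on P13 arrays and 6.51, 6.94 and 6.09 on P60 arrays. Its mean was highest at P13 in both genotypes, where all 6 arrays lay above all 6 arrays of P3, and lower again at P60. The P3 to P60 difference was 1.56 (SE 0.44, adjusted p = 0.0196) in wild type and -0.013 (SE 0.44, adjusted p = 0.989) in α9−/− mice, where P3 replicate 2, a low-Gapdh array, was the highest of its group. The wild type call was lost without P3 wild type replicate 2 or 3, or P60 wild type replicate 1 (1.18 to 1.40), and in a fit of those 6 arrays alone (1.56, adjusted p = 0.117). With low-Gapdh arrays left out the differences were 1.51 and 0.45. The genotypes differed in this change by -1.57 (adjusted p = 0.943 from limma). The second probe set of the gene gave 1.07 in wild type (adjusted p = 0.111) and 0.17 in α9−/− mice.

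Col4a4 (chr1:82448419-82587034) had wild type log2 signals of 7.44, 6.67 and 7.11 on P3 arrays, 8.93, 8.77 and 8.22 on P7 arrays, 8.27, 9.05 and 8.62 on P13 arrays and 8.96, 8.58 and 7.80 on P60 arrays. Col4a4 in α9−/− mice had 6.84, 7.19 and 6.98 on P3 arrays, 9.20, 8.19 and 8.73 on P7 arrays, 9.20, 9.33 and 9.48 on P13 arrays and 7.84, 8.43 and 7.81 on P60 arrays. Every array of P7, P13 and P60 lay above every array of P3 in both genotypes. The difference from P3 to P60 was 1.38 (SE 0.31, adjusted p = 0.00424) in wild type and 1.03 (SE 0.31, adjusted p = 0.0299) in α9−/− mice. The α9−/− call was lost without P3 α9−/− replicate 1 or 3, or P60 α9−/− replicate 1 or 2 (0.82 to 1.12), and the wild type call in a fit of the 6 arrays alone (adjusted p = 0.0963). Centred on array medians instead, the α9−/− difference was 0.94 and did not pass. Its other probe sets also had higher means at P60, by 1.17 and 0.43 in wild type, the first of them past the threshold (adjusted p = 0.0119).

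Col4a5 (chrX:141475370-141689236) had wild type log2 signals of 9.79, 10.24 and 10.09 on P3 arrays, 9.75, 9.81 and 9.46 on P7 arrays, 9.77, 9.77 and 9.17 on P13 arrays and 9.70, 8.94 and 8.65 on P60 arrays. Col4a5 in α9−/− mice had 9.75, 10.21 and 9.84 on P3 arrays, 9.58, 9.60 and 9.56 on P7 arrays, 9.54, 9.50 and 9.72 on P13 arrays and 8.58, 9.03 and 8.47 on P60 arrays. P60 arrays lay below P3 arrays in both genotypes, in wild type narrowly so for P3 replicate 1 and P60 replicate 1, both low-Gapdh arrays. Its difference was -0.94 (SE 0.24, adjusted p = 0.0108) in wild type and -1.24 (adjusted p = 0.00135) in α9−/− mice. The wild type call was lost without P3 wild type replicate 2, or P60 wild type replicate 3 (-0.84 to -0.72) and in a fit of the 6 arrays alone (adjusted p = 0.186), whereas with low-Gapdh arrays left out the difference was -1.37 (adjusted p = 0.000359). Its second probe set gave -0.48 and -1.25, neither past the threshold.

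Col4a6 (chrX:141165403-141474095) had wild type log2 signals of 5.25, 6.86 and 6.62 on P3 arrays, 6.38, 6.19 and 6.48 on P7 arrays, 6.77, 6.52 and 6.30 on P13 arrays and 6.25, 5.87 and 5.74 on P60 arrays. Col4a6 in α9−/− mice had 6.60, 6.36 and 6.78 on P3 arrays, 6.80, 6.32 and 5.93 on P7 arrays, 6.06, 6.20 and 6.36 on P13 arrays and 6.14, 6.47 and 6.13 on P60 arrays. The ages overlapped, and the difference from P3 to P60 was -0.29 in wild type (adjusted p = 0.622) and -0.33 in α9−/− mice (adjusted p = 0.541).

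**Figure D2:**
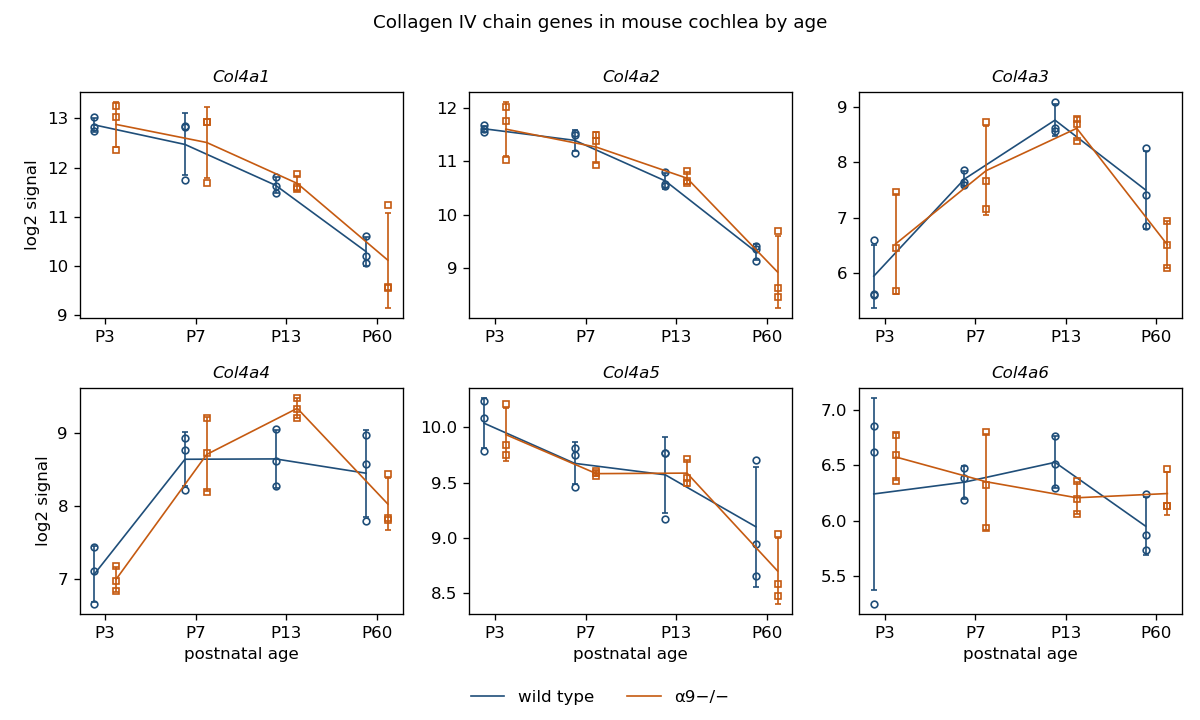
Log2 signal of the 6 collagen IV genes against postnatal age, with 1 point per array, lines through the group means and bars of 1 SD (n = 3), in wild type (circles) and α9−/− mice (squares). Col4a1 and Col4a2 step down with age, Col4a3 peaks at P13, Col4a4 is lowest at P3, and each panel has its own vertical range.

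Fibrillar chains were lower at P60, with 6 of 8 falling in each genotype and 0 rising (medians -1.90 and -1.29). Col5a1 and Col5a2 encode chains of collagen V, which starts and limits the width of collagen I fibrils. Col5a1 had wild type log2 signals of 11.33, 11.28 and 11.30 on P3 arrays, 11.72, 11.52 and 11.73 on P7 arrays, 11.06, 10.14 and 10.61 on P13 arrays and 9.08, 8.56 and 8.79 on P60 arrays. Col5a1 signals in α9−/− mice were 10.99, 11.21 and 11.73 on P3 arrays, 11.33, 11.68 and 11.95 on P7 arrays, 11.68, 10.71 and 10.77 on P13 arrays and 8.72, 8.81 and 9.52 on P60 arrays. It fell by 5.62-fold in wild type (-2.49, SE 0.29, adjusted p = 5.6e-06) and by 4.89-fold in α9−/− mice, and no array of P60 reached one of an earlier age. Of its other probe sets, the next brightest fell (-2.21 and -1.83) and the dimmest differed by -1.19 and -0.91 without passing.

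Col5a2 kept a high level until P13 and then dropped. Col5a2 log2 signals in wild type were 13.20, 13.19 and 13.06 on P3 arrays, 13.65, 13.61 and 13.75 on P7 arrays, 13.86, 13.61 and 13.61 on P13 arrays and 11.56, 10.70 and 10.88 on P60 arrays. Those of Col5a2 in α9−/− mice were 13.08, 13.35 and 13.08 on P3 arrays, 13.72, 13.64 and 13.73 on P7 arrays, 13.87, 13.40 and 13.41 on P13 arrays and 11.15, 11.43 and 11.77 on P60 arrays. From P3 to P60 it fell by 4.3-fold in wild type (-2.11, SE 0.20, adjusted p = 6.54e-07) and by 3.3-fold in α9−/− mice.

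Col24a1, a minor fibrillar chain known from developing bone, showed the same course. Col24a1 log2 signals in wild type were 9.93, 10.02 and 9.68 on P3 arrays, 10.50, 10.82 and 10.54 on P7 arrays, 10.81, 10.51 and 10.20 on P13 arrays and 8.59, 6.91 and 6.50 on P60 arrays. For α9−/− mice Col24a1 read 10.03, 10.16 and 9.35 on P3 arrays, 10.48, 10.74 and 10.35 on P7 arrays, 10.38, 9.87 and 9.79 on P13 arrays and 6.70, 7.73 and 6.73 on P60 arrays. It fell by 5.83-fold in wild type (-2.54, SE 0.39, adjusted p = 0.000140) and 6.93-fold in α9−/− mice, although P60 wild type replicate 1, a low-Gapdh array, stood above the other P60 arrays of its genotype. With low-Gapdh arrays left out the wild type difference was -3.15.

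Col1a1, Col1a2 and Col3a1 are the main chains of bone and connective tissue. Col1a1 and Col1a2, the chains of collagen I, were among the brightest probe sets of the array, near the top of a scale whose highest values are set by rank, and differed by -1.87 and -1.11 in wild type (adjusted p = 0.000402 and 6.17e-05) and by -0.97 and -0.70 in α9−/− mice (adjusted p = 0.0492 and 0.00442). At P60 Col1a1 read 11.69, 12.39 and 13.44 in wild type and 13.07, 12.89 and 14.01 in α9−/− mice, against 14.01 to 14.48 on the 6 arrays of P3. The second Col1a1 probe set differed by -0.54 in wild type and -0.40 in α9−/− mice and did not pass (adjusted p = 0.735 and 0.800). As the mean over both probe sets, the Col1a1 difference was -1.21 and -0.68, and the call was lost in both genotypes (adjusted p = 0.0559 and 0.299). The α9−/− call of Col1a1 rested on single arrays, being lost without P3 α9−/− replicate 1, 2 or 3, or P60 α9−/− replicate 1 or 2 (-1.11 to -0.75), as well as with low-Gapdh arrays left out (adjusted p = 0.0665). In fits of the 6 wild type arrays alone, neither Col1a1 nor Col1a2 passed (adjusted p = 0.0646 and 0.0522). Col3a1, the collagen of elastic and reticular tissue, fell by 3.82-fold and 3.08-fold. For Col3a1 and Col1a2 the dimmer probe sets differed by more, with -3.82 and -3.66 for the second of Col3a1 and -2.43 and -2.43 for the dimmest of Col1a2, in wild type and α9−/− mice. In fits of the 6 α9−/− arrays alone Col1a1, Col1a2 and Col3a1 did not pass (adjusted p = 0.119, 0.0734 and 0.0609). Col27a1, a chain of cartilage, and Col5a3 did not pass in either genotype (wild type -0.85 and -0.25, adjusted p = 0.127 and 0.773).

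Fibril-associated chains fell in 4 of 6 cases in each genotype, and Col19a1 was the exception that rose in wild type. Col12a1 and Col14a1 sit on collagen I fibrils. Col12a1 log2 signals in wild type were 11.29, 11.79 and 11.69 on P3 arrays, 11.59, 10.89 and 11.70 on P7 arrays, 10.81, 9.82 and 10.29 on P13 arrays and 8.63, 8.25 and 7.92 on P60 arrays. Col12a1 signals in α9−/− mice were 11.67, 10.95 and 11.29 on P3 arrays, 11.36, 10.70 and 11.29 on P7 arrays, 11.31, 10.03 and 9.36 on P13 arrays and 8.24, 8.36 and 7.98 on P60 arrays. With 10-fold in wild type (-3.33, SE 0.38, adjusted p = 4.86e-06) and 8.62-fold in α9−/− mice, it had the second largest fall of the 35 genes in both genotypes. Of its other probe sets, the next brightest fell (-3.36), while 2 dim ones differed by 0.50 and -0.48 and did not pass.

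Col14a1 declined early, between P3 and P13. Col14a1 log2 signals in wild type were 10.81, 11.35 and 11.13 on P3 arrays, 10.01, 10.11 and 9.89 on P7 arrays, 9.32, 8.73 and 8.82 on P13 arrays and 9.004, 8.56 and 8.68 on P60 arrays. In α9−/− mice Col14a1 had 11.06, 11.09 and 11.33 on P3 arrays, 9.86, 10.40 and 10.02 on P7 arrays, 8.80, 8.88 and 9.15 on P13 arrays and 8.41, 8.82 and 9.21 on P60 arrays. Arrays of P3, P7 and P13 formed descending bands with no overlap in either genotype. The P3 to P60 change was -2.35 (SE 0.22, adjusted p = 3.96e-07) in wild type and -2.35 in α9−/− mice.

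Col16a1, a minor fibril-associated collagen, had lower means from P13 on. Col16a1 log2 signals in wild type were 11.44, 10.73 and 10.90 on P3 arrays, 11.03, 10.38 and 11.04 on P7 arrays, 9.98, 8.91 and 9.56 on P13 arrays and 8.16, 8.76 and 9.44 on P60 arrays. For α9−/− mice Col16a1 gave 10.60, 11.12 and 11.15 on P3 arrays, 10.98, 10.64 and 11.06 on P7 arrays, 10.35, 9.40 and 9.66 on P13 arrays and 8.46, 8.12 and 9.66 on P60 arrays. Replicate 3 of P60 was the highest of its group in both genotypes. The change was -2.24 (SE 0.39, adjusted p = 0.000438) and -2.21 (adjusted p = 0.000556).

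Col19a1, a collagen of basement membrane zones in muscle and brain, was dim at P3 and P7 and higher afterwards. Col19a1 log2 signals in wild type were 5.13, 4.42 and 4.57 on P3 arrays, 4.99, 4.62 and 4.57 on P7 arrays, 5.40, 6.65 and 6.76 on P13 arrays and 7.79, 7.03 and 6.42 on P60 arrays. Those of Col19a1 in α9−/− mice were 4.92, 5.69 and 5.65 on P3 arrays, 4.80, 4.40 and 4.19 on P7 arrays, 5.27, 6.23 and 6.46 on P13 arrays and 7.40, 7.53 and 5.44 on P60 arrays. It rose by 5.18-fold in wild type (2.37, SE 0.49, adjusted p = 0.00210), and the α9−/− difference of 1.37 did not pass (adjusted p = 0.0674). Of its other probe sets one rose by 2.55 on the log2 scale and the dimmest differed by -0.32. The mean of its brightest probe set lay below the median of all probe sets. With only probe sets above that median tested, its wild type call was lost. Over 10 cerebellar markers the summed log2 signal was 11.73 to 11.97 at P3 and 11.71 to 14.09 at P60 in wild type. In α9−/− mice it was 11.39 to 12.44 and 13.14 to 15.12. On P60 replicates 1, 2 and 3 the sums were 13.56, 11.71 and 14.09 in wild type and 15.12, 14.63 and 13.14 in α9−/− mice. Replicate 3 had the lowest Col19a1 of P60 in both genotypes, with the highest cerebellar sum in wild type and the lowest in α9−/− mice. Mean signals under 6 were seen for 4 of the 10 at P3 and for 1 at P60 in wild type. The part of cerebellar tissue in the Col19a1 difference was not tested. Col22a1, found at tissue junctions, had its highest means at P7 and P13 and fell by 3.77-fold and 3.63-fold to P60. The α9−/− call of Col22a1 was lost without P3 α9−/− replicate 2, or P60 α9−/− replicate 1 (-1.64 to -1.54) and its wild type call in a fit of the 6 arrays alone (adjusted p = 0.116). Col20a1 did not pass (-0.055 and -0.26).

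Of the beaded-filament chains, 3 of 5 fell in each genotype. Collagen VI forms microfibrils around cells, and its chains Col6a1, Col6a2 and Col6a3 changed together. Col6a3 log2 signals in wild type were 11.86, 12.02 and 11.78 on P3 arrays, 12.12, 11.76 and 12.01 on P7 arrays, 10.85, 10.76 and 10.56 on P13 arrays and 9.49, 8.76 and 9.60 on P60 arrays. Col6a3 signals in α9−/− mice were 11.83, 11.73 and 12.54 on P3 arrays, 11.91, 11.96 and 11.99 on P7 arrays, 11.60, 10.59 and 10.49 on P13 arrays and 8.97, 9.08 and 10.14 on P60 arrays. It fell by 6.06-fold in wild type (-2.60, SE 0.31, adjusted p = 1.02e-05) and by 6.21-fold in α9−/− mice. Col6a1 and Col6a2, neighbours on chromosome 10, fell by 3.29-fold and 3.23-fold in wild type (adjusted p = 0.00104 and 0.000254) and by 3.4-fold and 2.98-fold in α9−/− mice. For all 3 chains P60 α9−/− replicate 3 was the highest of its group, at 10.72, 10.95 and 10.14. That array was the highest of its group for 23 of the 35 members, and P60 wild type replicate 1, a low-Gapdh array, was the highest of its group for 20 of 35. Col6a4 and Col6a5, the alternative chains, were dim at 2.80 to 6.39 and did not pass.

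The transmembrane collagens shared no course. Col13a1, which sits in the postsynaptic membrane of nerve-muscle contacts, had its highest mean at P7 and its lowest at P60. Col13a1 log2 signals in wild type were 10.59, 9.83 and 10.01 on P3 arrays, 11.14, 11.27 and 11.02 on P7 arrays, 10.78, 10.15 and 9.92 on P13 arrays and 8.76, 7.60 and 7.99 on P60 arrays. For α9−/− mice Col13a1 read 9.94, 10.39 and 9.14 on P3 arrays, 10.86, 10.97 and 11.09 on P7 arrays, 10.93, 9.92 and 9.75 on P13 arrays and 7.86, 8.11 and 8.21 on P60 arrays. It fell by 4.08-fold in wild type (-2.03, SE 0.35, adjusted p = 0.000387) and 3.39-fold in α9−/− mice. Col23a1 passed in wild type only (-1.31, adjusted p = 0.00670, and -0.83, adjusted p = 0.0563, with low-Gapdh arrays left out). Its call was also lost in a fit of the 6 arrays alone (adjusted p = 0.160). Col25a1, needed for motor axons to enter muscle, differed by -0.54 and -0.80 and did not pass.

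Col17a1, the hemidesmosome collagen of epithelia, also did not pass (0.65 and 0.078), and its arrays scattered widely. It was highest on P3 α9−/− replicate 3 (6.91) and P60 wild type replicate 3 (6.89), followed by P7 α9−/− replicate 3 (5.84), against 3.42 to 5.76 on the other 21 arrays. On these 3 arrays the summed log2 signal of 9 keratinocyte markers was 10.44, 11.27 and 10.92, within a range over all arrays of 9.15 to 11.27. P3 α9−/− replicate 2 had a sum of 10.96 with Col17a1 at 4.67. Of the markers, 5 of the 9 had a mean under 6 at P3 in wild type. The part of other tissue in these values was not tested.

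Both multiplexins, basement membrane proteoglycans that release anti-angiogenic fragments, fell. Col18a1 differed by -1.89 in wild type and -1.69 in α9−/− mice (adjusted p = 5.3e-06 and 2.51e-05), and Col15a1 by -1.52 and -1.85 (adjusted p = 0.00632 and 0.00145). The wild type call of Col15a1 was lost with low-Gapdh arrays left out (-1.31, adjusted p = 0.0661) and in a fit of the 6 arrays alone (adjusted p = 0.0569). Endothelial markers, as a sum over 11 genes, were 12.37 to 12.59 at P3 and 11.82 to 12.52 at P60 in wild type.

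Col26a1, first described in testis and ovary, had the largest fall of the 35. Col26a1 log2 signals in wild type were 8.99, 9.88 and 9.86 on P3 arrays, 9.62, 7.69 and 10.03 on P7 arrays, 7.15, 6.79 and 7.62 on P13 arrays and 4.58, 5.60 and 5.57 on P60 arrays. Col26a1 signals in α9−/− mice were 9.06, 9.08 and 10.33 on P3 arrays, 10.12, 8.99 and 9.61 on P7 arrays, 7.999, 7.57 and 7.60 on P13 arrays and 5.35, 5.40 and 6.22 on P60 arrays. From P3 to P60 it fell by 20-fold in wild type (-4.32, SE 0.50, adjusted p = 5.9e-06) and by 14.3-fold in α9−/− mice (-3.84, adjusted p = 3e-05). Its P13 arrays lay between those of P7 and P60 in both genotypes, with P7 wild type replicate 2 just above the highest P13 array. The second Col26a1 probe set was dim. In wild type it read 4.02, 5.29 and 4.55 on P3 arrays and 4.11, 4.56 and 4.02 on P60 arrays. In α9−/− mice it read 4.43, 4.10 and 4.51 on P3 arrays and 3.42, 3.70 and 3.70 on P60 arrays. The size of the fall therefore rests on the brightest probe set.

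Among the short-chain and anchoring-fibril genes every P3 to P60 difference was negative, but only that of Col8a2 in α9−/− mice passed. Col8a1 was highest at P13, and its P3 to P60 difference of -0.30 and -0.71 did not pass. Col8a2 differed by -1.03 in wild type (adjusted p = 0.108) and fell by 2.79-fold in α9−/− mice (adjusted p = 0.0179), a call lost without P3 α9−/− replicate 1, or P60 α9−/− replicate 1 or 2 (-1.45 to -1.31). Col7a1, the anchoring fibril chain of skin, differed by -0.051 and -0.29 and did not pass.

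**Figure D3:**
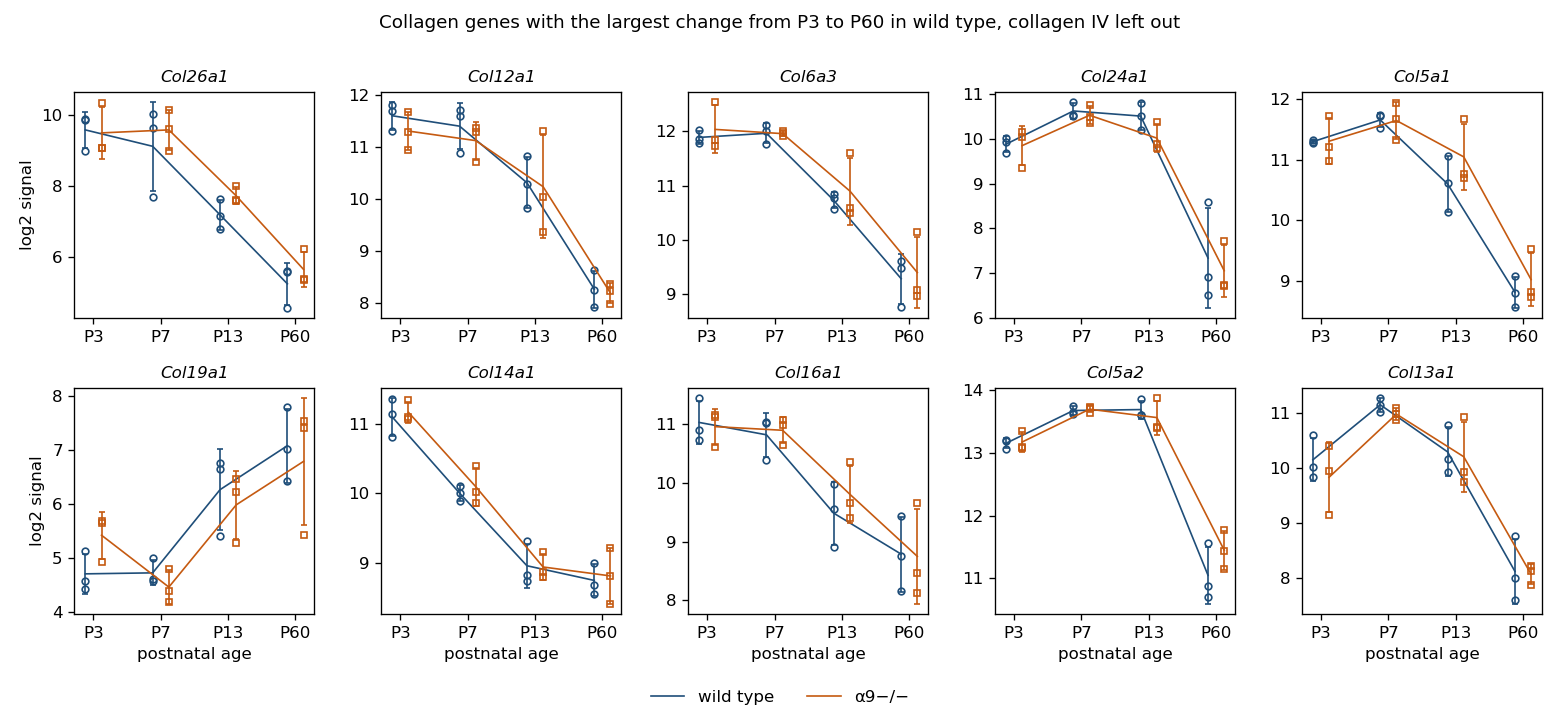
Log2 signal against postnatal age of the 10 collagen genes outside collagen IV with the largest wild type change from P3 to P60, with 1 point per array, lines through group means and bars of 1 SD (n = 3). Col19a1 is the gene that is higher at P60, Col5a2 and Col24a1 stay high until P13, and Col14a1 is already low at P13.

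Changes were spread unevenly over the ages. In wild type 16 members had their highest group mean at P3, 9 at P7, 8 at P13 and 2 at P60, and 24 had their lowest at P60. In α9−/− mice the highest mean was at P3 for 18, at P7 for 12, at P13 for 3 and at P60 for 2, and the lowest was at P60 for 29. From P3 to P7, 1 of 35 members rose and 2 fell in wild type, against 0.492% and 0.503% of all probe sets, and 1 rose and 1 fell in α9−/− mice, against 0.41% and 0.796%. Col4a4 rose in both genotypes (1.57, adjusted p = 0.0142, and 1.70, adjusted p = 0.00852), Col14a1 fell in both (-1.09 and -1.07), and Col18a1 fell in wild type (-0.98). Col4a3 differed by 1.76 and 1.33 without passing (adjusted p = 0.0590 and 0.165).

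These early calls depended on single arrays. The wild type call of Col4a4 was lost without P3 wild type replicate 2 or 3, or P7 wild type replicate 1 or 2 (1.36 to 1.59), and its α9−/− call without P7 α9−/− replicate 1 (1.46). Col14a1 lost its call in wild type without P3 wild type replicate 2 or 3, or P7 wild type replicate 2 or 3 (-1.15 to -0.97) and in α9−/− mice without P3 α9−/− replicate 2 or 3, or P7 α9−/− replicate 1 or 3 (-1.10 to -0.95). Col18a1 lost its call with any of the 6 wild type arrays left out. In all, 0 to 3 wild type and 0 to 3 α9−/− members passed with 1 array left out, and 0 in each genotype in fits of the 6 arrays alone.

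From P7 to P13, when hearing begins in mice, 2 members rose and 7 fell in wild type, against 8.65% and 5.55% of all probe sets, and 1 rose and 3 fell in α9−/− mice, against 2.03% and 0.911%. Col8a1, a chain of the network collagen of vessels and of the corneal Descemet membrane, rose in both genotypes. Its log2 signals at P7 were 11.03, 10.91 and 10.55 in wild type and 10.31, 10.98 and 10.92 in α9−/− mice, and at P13 11.61, 12.16 and 11.66 and 11.80, 12.25 and 12.33. The ages did not overlap, with differences of 0.98 (adjusted p = 0.0102) and 1.39 (adjusted p = 0.00196). Its mean over all 3 probe sets differed by -0.28 in wild type instead, so the wild type direction rests on the brightest probe set. In wild type the next brightest read 10.30 to 10.36 at P7 and 9.14 to 9.86 at P13. The dimmest read 5.69 to 8.16 at P7, then 4.88 and 5.23 on the low-Gapdh arrays of P13 and 7.88 on its replicate 3. The wild type call was lost without P7 wild type replicate 3, or P13 wild type replicate 2 (0.81 to 0.84).

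Col14a1, Col18a1 and Col26a1 fell from P7 to P13 in both genotypes, with log2 differences of -1.04, -0.87 and -1.93 in wild type and of -1.15, -0.88 and -1.85 in α9−/− mice. In wild type Col5a1, Col6a3, Col16a1 and Col27a1 also fell (-1.06, -1.24, -1.33 and -1.38) and Col19a1 rose (1.54). With 1 array left out, 2 to 9 members passed in wild type, with 2 without P13 replicate 2, 3 without P7 replicate 3 and 5 without P7 replicate 1. Col14a1 and Col6a3 kept their wild type calls in each of these 6 fits, and Col14a1 and Col8a1 their α9−/− calls. In α9−/− mice 2 to 4 members passed, with 2 without P7 replicates 1 or 3 or P13 replicates 2 or 3, and Col26a1 lost its call with any of the 6 arrays left out. With low-Gapdh arrays left out, which left 1 wild type array at P13, 2 wild type members passed. Limma's interaction test called 0 members and 0.00222% of all probe sets in this change, with 1, Col27a1, at an unadjusted p under 0.05 against 8.89% of all probe sets (1.21, adjusted p = 0.534).

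More members fell between P13 and P60 than in either earlier interval. In this interval 16 members fell in wild type and 18 in α9−/− mice and 0 rose in either, against 6.97% and 3.58% of all probe sets called lower and 5.06% and 3.69% called higher. Col24a1, Col22a1, Col5a2, Col13a1 and Col12a1 fell most in wild type, with log2 differences of -3.17, -2.74, -2.64, -2.17 and -2.04, and had -2.96, -2.48, -2.11, -2.14 and -2.04 in α9−/− mice, with every call kept with any array left out. Col8a1 fell back (-1.46 and -2.05). With low-Gapdh arrays left out 9 members passed in wild type, and without P60 α9−/− replicate 1, 11 passed in α9−/− mice.

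In this last interval the collagen IV genes Col4a3, Col4a4 and Col4a5 fell in α9−/− mice, with log2 differences of -2.11, -1.31 and -0.89 (adjusted p = 0.00449, 0.0113 and 0.0267). The wild type differences were -1.26, -0.20 and -0.47 and did not pass (adjusted p = 0.0648, 0.729 and 0.212). The test of the difference between genotypes called 0 members and 0% of all probe sets, and 1, Col4a4, had an unadjusted p under 0.05 against 4% of all probe sets (-1.11, adjusted p = 1.000). The α9−/− call of Col4a4 was lost without P60 α9−/− replicate 1 (-1.21) and that of Col4a5 without P13 α9−/− replicate 1, 2 or 3, or P60 α9−/− replicate 1 or 3 (-0.93 to -0.78). Col4a3 kept its call with any of the 6 α9−/− arrays left out.

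**Figure D4:**
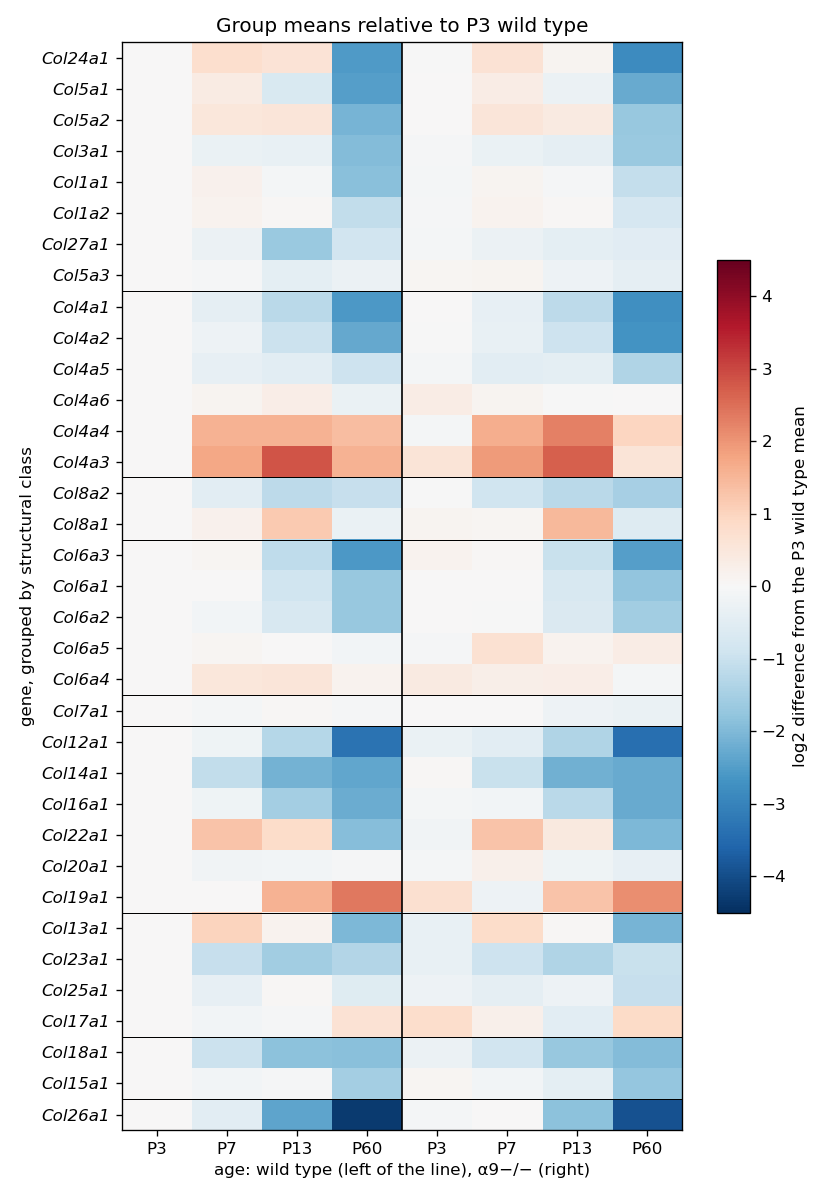
Group mean of each collagen gene minus its mean in P3 wild type mice, on the log2 scale, by age in wild type (left 4 columns) and α9−/− mice (right 4 columns), each mean over 3 arrays, with horizontal lines between structural classes. Blue at P60 marks the lower adult means in both genotypes. The deepest red marks Col4a3 at P13 and Col19a1 at P60 in both genotypes, and Col4a4 at P13 in α9−/− mice.

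Between genotypes of the same age, few collagen genes passed the test. Of the 35 genes, 28 passed the variance filter used for this test. At P3, P7 and P60, 0 of the 28 passed in limma fits of the 6 arrays of the age, and 0 had an unadjusted p under 0.05; the shares of tested probe sets called were 0%, 0.0111% and 0%, and those with an unadjusted p under 0.05 were 1.85%, 1.53% and 6.1%. At P60 Col4a3 differed by -0.99 (SE 0.45, adjusted p = 0.775) and Col1a1 by 0.82 (SE 0.52, adjusted p = 0.781) in α9−/− relative to wild type mice.

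At P13, 1 of the 28 passed, whereas 14.8% of the tested probe sets were called, and 2, Col27a1 and Col4a4, had an unadjusted p under 0.05 against 37.2%. This gene was Col27a1, with log2 signals of 9.28, 9.06 and 9.50 in wild type and 10.24, 10.49 and 10.73 in α9−/− mice, a difference of 1.20 (SE 0.26, adjusted p = 0.0277). Groups did not overlap. The second probe set of Col27a1 read 9.77, 10.20 and 9.89 in wild type and 9.50, 9.67 and 9.58 in α9−/− mice, a difference of -0.37 in the other direction, and lay outside the variance filter.

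On each of the 5 low-Gapdh arrays, the brightest Col27a1 probe set read below the arrays of its group that were not low-Gapdh arrays. The Gapdh 3′ minus 5′ difference was 6.30, 6.47 and 2.43 on the P13 wild type arrays and 0.34, -0.15 and -0.15 on the P13 α9−/− arrays. At P60 the wild type low-Gapdh array read 9.004 for Col27a1 against 10.72 and 10.54 on the other two. At P3 the wild type array of that kind read 10.67 against 11.01 and 11.14, and the α9−/− one 10.09 against 11.20 and 11.28. The part of RNA quality in the P13 difference was not tested, and with low-Gapdh arrays left out, which left 1 wild type array, the difference was 0.98 (adjusted p = 0.247). The call was also lost without P13 wild type replicate 1 or 2, or P13 α9−/− replicate 2 or 3 (1.08 to 1.20), and in a fit of all 24 arrays (1.20, adjusted p = 0.0675). Col4a4 was higher on every α9−/− array of P13 than on every wild type array, by 0.69, and did not pass (adjusted p = 0.116).

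The 35 members had 71 probe sets, not all within the variance filter. Dimmer ones of 4 members passed between genotypes at P13, each higher in α9−/− mice. Of all tested probe sets, 14.8% were called at P13, in either direction. The number of dimmer probe sets tested is not given here, so these calls cannot be compared with that share. That of Col4a4 read 6.03, 5.58 and 5.84 in wild type and 7.08, 7.02 and 7.09 in α9−/− mice, a difference of 1.24 (adjusted p = 0.0207). The other three were probe sets of Col8a1 (3.11, adjusted p = 0.0330), Col5a1 (2.69, adjusted p = 0.0462) and Col23a1 (1.91, adjusted p = 0.0286). The brightest probe sets of Col8a1, Col5a1 and Col23a1 differed by 0.31, 0.45 and 0.24 and did not pass. As 2 of the 3 wild type arrays were low-Gapdh arrays, the same values of RNA quality stand beside these differences, and their part was not tested.

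**Figure D5:**
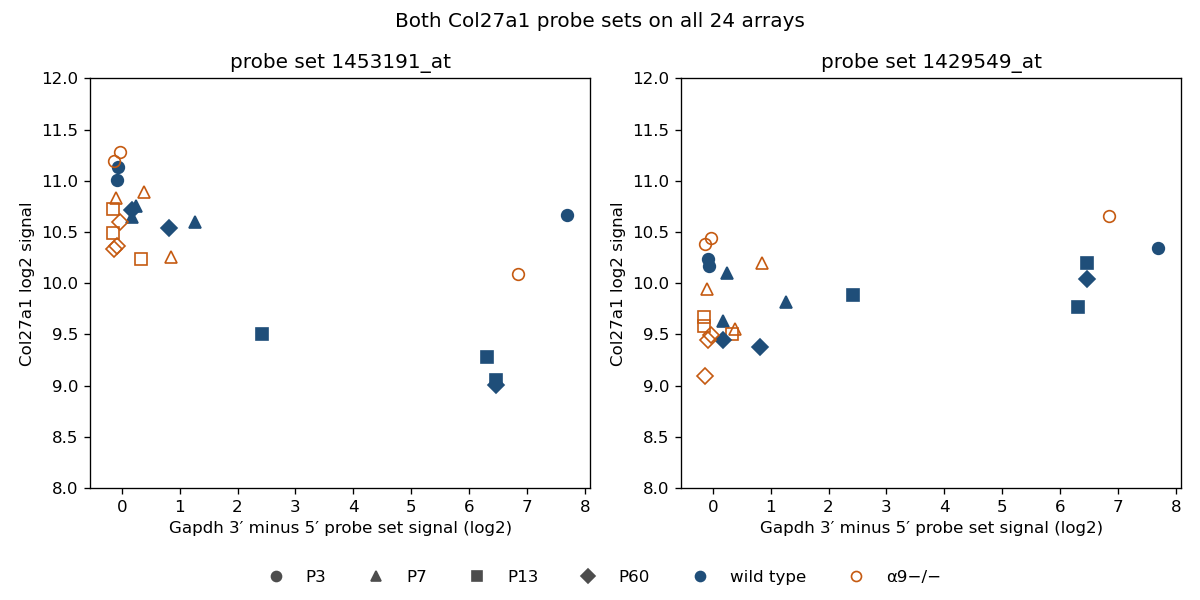
Log2 signal of both Col27a1 probe sets on each of the 24 arrays against the log2 difference between the 3′ and 5′ Gapdh probe sets, with symbols for age and colours for genotype. On the brightest probe set (left) the P13 wild type arrays (filled squares) and the P60 low-Gapdh array lie between 9.004 and 9.50, the P3 arrays of high Gapdh difference lie above 10, and on the second (right) the P13 wild type squares lie above the P13 α9−/− squares.

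Genes that make, fold and crosslink collagen fell with the chains. Of 30 measured genes of collagen processing, 23 fell and 0 rose from P3 to P60 in wild type, and 18 fell and 0 rose in α9−/− mice. Of all probe sets 6.11% were called lower and 7.59% higher in wild type, and 8.01% and 6.28% in α9−/− mice. These shares also stand beside the counts of the lists that follow. Serpinh1, the collagen chaperone, differed by -2.97 and -2.11, and P3h1, a prolyl hydroxylase of collagen I, by -2.24 and -2.20. Loxl4, a lysyl oxidase that crosslinks fibrils, fell (-2.34 and -2.57). Pxdn, the peroxidase that forms the sulfilimine bonds of collagen IV networks, fell (-2.50 and -2.66).

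Among 21 other basement membrane genes, 11 fell and 1, the laminin chain Lamb3, rose in wild type (1.66), and 12 fell and 0 rose in α9−/− mice. Nid2, which links laminin to collagen IV, differed by -3.46 and -3.87, Lama4, a laminin chain of vessels, by -2.30 and -1.76, Fras1, an epithelial basement membrane protein, by -3.08 and -2.39, and Egflam, or pikachurin, a ligand of dystroglycan, by -1.78 and -1.97. Of 9 collagen receptors 2 rose and 1 fell in wild type, against 7.59% and 6.11% of all probe sets. Those that rose were Lair1 (1.71), an inhibitory receptor of immune cells, and Gp6 (1.00), the platelet receptor, neither of which passed in α9−/− mice (0.69 and 0.55). Itga10, the integrin chain of chondrocytes, fell in both (-0.93 and -0.95).

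Proteins that bind fibrils were mixed, with 7 of 17 lower and 1 higher in wild type and 5 lower and 0 higher in α9−/− mice. Thbs2, Aspn and Postn, matrix proteins of fibril-rich tissue, fell in both genotypes (-2.84, -2.04 and -1.83 in wild type). Prelp, which anchors basement membranes to connective tissue, rose by 1.83, and its α9−/− difference of 0.81 did not pass. Of 13 collagenases and inhibitors, 7 fell and 2 rose in wild type and 8 fell and 2 rose in α9−/− mice. Mmp9 and Ctsk, which osteoclasts use to degrade bone matrix, and Mmp16 differed by -3.66, -3.17 and -2.64 in wild type, and Mmp8, the neutrophil collagenase, rose by 3.25.

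Markers of bone, cartilage and other tissues of the sample moved beside these genes. The shares of all probe sets called lower and higher were 6.11% and 7.59% in wild type and 8.01% and 6.28% in α9−/− mice. Of 8 osteoblast and osteocyte genes 5 fell and 0 rose in wild type from P3 to P60, and their summed log2 signal was 14.66 to 14.86 at P3, 15.23 to 15.34 at P13 and 13.43 to 14.01 at P60. In α9−/− mice it was 14.50 to 14.83, 15.09 to 15.47 and 13.62 to 13.72. Of 15 cartilage genes, 7 of which are the collagen chains left out here, 8 fell and 1 rose, with sums of 15.30 to 15.90 at P3 and 13.75 to 14.30 at P60. Fibroblast markers moved less, with 2 of 10 lower and 1 higher in wild type and sums of 14.28 to 14.72 and 14.22 to 14.33, and 2 genes of that list, Dcn and Lum, are also fibril-binding proteoglycans. All 9 neutrophil markers rose in both genotypes, with sums of 10.80 to 12.14 at P3 and 15.82 to 16.02 at P60 in wild type. Skeletal muscle markers scattered between arrays, from 11.96 to 14.50 at P3 and 13.74 to 16.09 at P60, and of 7 Schwann cell markers 1 rose and 0 fell. The part of a changed tissue mix in the collagen differences was not tested.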

How the data were processed

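Affymetrix mouse genome arrays were hybridised with whole-cochlea RNA, 1 pool of mice per array. Per the authors' methods, the log2 values they deposited came from RMA background correction, quantile normalization and a Tukey biweight summary of each probe set in R. No detection calls were used. Precision is limited by how many arrays there were. Since array medians differed between ages, the values were quantile-normalized again over all 24 arrays. Genes were named from the platform annotation: 34958 of 45101 probe sets carried 1 symbol, 932 several and 9211 none, and no gene was named from a probe set with several. Each gene was read through the probe set of highest mean, and other probe sets are given for some of the genes named.

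Ages, and the difference of age changes between genotypes, were tested with limma 3.58.1 in R 4.3.3 over 8 groups and all probe sets, with Benjamini-Hochberg adjustment at 0.05. Genotypes were tested on the 6 arrays of an age, over the 18041 probe sets (40%) of highest variance. All tests were two-sided. Promoter windows and figures were handled with Python 3.11.15 and matplotlib 3.10.9. The model was tested on simulated data, with 200 of 45101 probe sets changed from P3 to P60 in wild type. It recovered 22.5% of log2 changes of 1 and 81% of log2 changes of 2. Of the calls made, 6.25% and 5.26% were false. P-values measure the spread between pools, since the labels do not say more about their independence. Array values are given for collagen IV genes and for the 12 genes of largest wild type P3 to P60 change among those passing; of each partner list, the 4 passing genes of largest change are named, and Lamb3 was added after its value was seen. Members, gene lists and tests were chosen with earlier results of these data known. Same-numbered arrays deviated together (every pair's r over 0.1) in 1 of 12 comparisons, P3 to P60 in α9−/− mice (r of 0.11 to 0.27).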

Additional observations from a re-analysis of the deposited data

How the results depend on the processing

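Over both genotypes' P3 to P60 differences of the 35 genes, 195 of 210 wild type values and 186 of 210 α9−/− values kept direction and side of the threshold with 1 array left out, as did 420 of 455 and 414 of 455 under the other settings. With 1 array left out, the number of genes passing was 22 to 25 in wild type and 18 to 23 in α9−/− mice from P3 to P60, 0 to 3 and 0 to 3 from P3 to P7, 2 to 9 and 2 to 4 from P7 to P13, and 13 to 20 and 11 to 21 from P13 to P60, and 0 to 1 between genotypes at P13. It was 0 throughout for the other genotype tests and for the interactions.

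Requiring a log2 difference of 1.5 left 1 and 1 genes (wild type and α9−/−) from P3 to P7, 2 and 1 from P7 to P13, 9 and 11 from P13 to P60, and 0 between genotypes at P13. An adjusted p under 0.01 left 0 and 1, then 1 and 2, then 11 in α9−/− mice from P13 to P60, and 0 between genotypes at P13. Fits of the compared arrays alone left 0 and 0 from P3 to P7. From P3 to P60 they lost the wild type calls of Col1a1, Col1a2, Col4a3, Col4a4, Col4a5, Col15a1, Col22a1 and Col23a1. They also lost the P3 to P60 calls of Col1a1, Col1a2 and Col3a1 in α9−/− mice. A fit of all 24 arrays left 0 between genotypes at P13. Array weights raised the counts to 8 and 6 from P3 to P7, 18 and 18 from P7 to P13, 3 between genotypes at P13, and 1 and 2 for the interactions of P7 to P13 and P13 to P60. With low-Gapdh arrays left out the counts were 5 and 5 from P3 to P7, 2 in wild type from P7 to P13, 9 in wild type from P13 to P60, and 0 between genotypes at P13. The cause of these shifts was not tested.

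Some differences changed sign. From P7 to P13 in wild type, Col8a1 was -0.28 as the mean over probe sets. From P3 to P60 in wild type, Col20a1 was 0.22 as that mean, 0.064 with array weights and 0.21 with low-Gapdh arrays left out. Leaving those out also turned Col5a3 (0.22), Col6a5 (0.090) and Col7a1 (0.0021). Array weights turned Col6a4 (-0.069) and Col6a5 (0.0056), and the values as deposited turned Col7a1 (0.00086). In α9−/− mice Col4a3 was 0.089 as deposited, 0.078 as the mean over probe sets, 0.40 with array weights and 0.45 with low-Gapdh arrays left out. The mean over probe sets turned Col6a4 (0.17) and Col20a1 (0.029), while Col17a1 was -0.068 centred on array medians and -0.26 with low-Gapdh arrays left out. Col27a1 from P7 to P13 in α9−/− mice was 0.095 as deposited.

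With 1 array left out, the P3 to P60 difference in wild type ran from -0.79 to 0.015 for Col4a6, -0.083 to 0.42 for Col6a4, -0.15 to 0.10 for Col7a1, -0.18 to 1.28 for Col17a1 and -0.25 to 0.20 for Col20a1. In α9−/− mice it ran from -0.44 to 0.45 for Col4a3, -0.47 to 0.016 for Col7a1 and -0.36 to 0.86 for Col17a1. From P13 to P60 in wild type, Col4a4 ran from -0.45 to 0.13.

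The replicate number as a block gave 24 genes in wild type and 24 in α9−/− mice from P3 to P60, 3 and 2 from P3 to P7, 11 and 4 from P7 to P13, and 16 and 20 from P13 to P60. Within an age, same-numbered arrays correlated at -0.62 to 0.57 in their deviations and 4 of 12 pairs matched best with their own number. A block for the poly-A controls could not be fitted at P60 between genotypes. Deposited values carry no depth. Low signal limits Col4a6, Col6a4, Col6a5, Col17a1 and Col19a1, whose means lay below the median of all probe sets, and also Col7a1 and Col20a1. For Col26a1 it does so at P60.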
